A study of Mus musculus with 8 samples.

Results

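The genes that place the insulin-responsive glucose transporter GLUT4 at the surface of muscle fibers were examined in gastrocnemius muscle of mice with a muscle-specific deletion of *Nox4*. They are 10 genes, chosen by name for their textbook role: the glucose transporters *Slc2a4*, *Slc2a1*, *Slc2a3* and *Slc2a12*, the RAB GTPase-activating proteins *Tbc1d1* and *Tbc1d4*, the RAB GTPases *Rab8a* and *Rab13*, and the SNARE genes *Vamp2* and *Stx4a*. All 10 had a row among the 32390 of the deposited table and all 10 passed the filter on low counts, which left 12725 rows for testing. Bulk poly(A) RNA-seq was available for 4 control mice (*Nox4* fl/fl) and 4 NOX4-deficient mice (MckCre:*Nox4* fl/fl). Both genotypes carry the floxed *Nox4* allele, and they differ by the Cre transgene. The transgene uses the *Mck* promoter of the creatine kinase gene of striated muscle, so that *Nox4* in other cells of the muscle remains. The mice were males, aged 21 months by the sample labels, and the labels place every sample in batch 1. NOX4 is an NADPH oxidase that makes hydrogen peroxide.

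GLUT4, encoded by *Slc2a4*, sits in intracellular vesicles in a resting fiber. Insulin, through AKT2, and contraction, through AMPK, RAC1 and calcium-dependent kinases, release these vesicles to the sarcolemma and the T-tubules. TBC1D4 and TBC1D1 hold the vesicles back by keeping RAB GTPases in their GDP-bound state, and phosphorylation of both relieves this brake. RAB8A and RAB13 are among the RAB proteins linked to this step in muscle cells, and VAMP2 on the vesicle pairs with syntaxin 4 on the plasma membrane for fusion. This control acts largely on protein location and phosphorylation, and the data below are transcript levels only.

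The libraries held 16350548 to 19804661 counts on genes. The muscle fiber markers *Acta1*, *Ckm*, *Mb*, *Actn3*, *Ryr1*, *Pygm*, *Ttn* and *Mylpf* were all abundant, with summed levels of 71680 to 90560 CPM in control libraries and 78330 to 91370 CPM in NOX4-deficient ones. CPM are counts relative to library size, scaled by the TMM method. *Nox4* itself had 85, 48, 35 and 70 counts in control and 29, 43, 42 and 37 counts in NOX4-deficient libraries, a log2 fold change of -0.65 (standard error, SE, 0.29) that missed the threshold (edgeR quasi-likelihood test, adjusted p = 0.207), and only 1 of 4 NOX4-deficient libraries lay below every control. The value was -0.36 without control replicate 1 (adjusted p = 0.489) and -0.82 without control replicate 3 (adjusted p = 0.106). These are counts over the whole gene, and the floxed exons were not counted apart. All fold changes are NOX4-deficient over control, errors are SDs over 4 mice, and a gene was called when its Benjamini-Hochberg adjusted p was under 0.05 and its log2 fold change over 0.5 in size. In whole muscle, fewer cells of a type and less RNA per cell cannot be told apart.

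Of the 10 genes, 1 was called, *Tbc1d1*, which was lower in NOX4-deficient muscle. None was called higher. This is 10% of the genes, against 6.16% of all rows tested in either direction, 3.48% called lower and 2.68% called higher. By the p threshold alone it was again 1 of the 10, against 7.75% of all rows. *Tbc1d1* was also the gene among the 10 whose control and NOX4-deficient libraries did not overlap, where 16.2% of all rows tested did not overlap. The other 9 genes were not called, 5 of the 10 log2 fold changes were positive and 5 negative, and their median was -0.069, beside 0.014 over all rows tested.

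**Figure D1:**
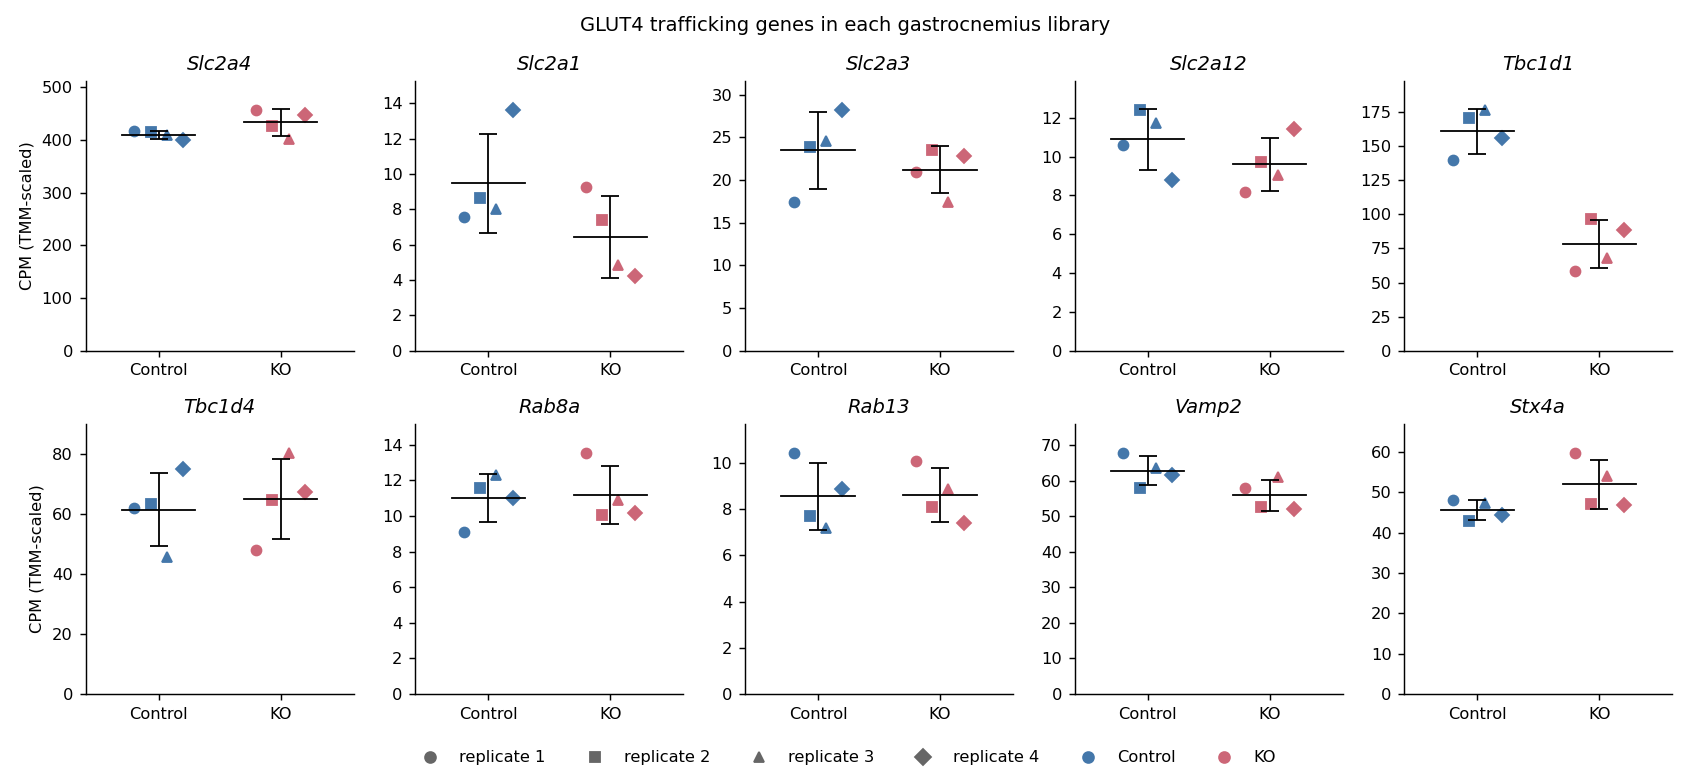
TMM-scaled CPM (y axis, from 0) of the 10 genes in each library, with 4 control (blue) and 4 NOX4-deficient (KO, red) mice and the mean and SD in black; the marker shape gives the replicate number. The groups separate for *Tbc1d1* (139.6 to 176.5 against 58.8 to 96.6 CPM) and overlap for the other 9 genes.

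*Tbc1d1* (chromosome 5) encodes the RAB GTPase-activating protein that receives the AMPK signal of contracting muscle as well as the AKT signal. Replicates 1 to 4 had 2329, 3319, 3299 and 3002 counts in mice without Cre, and 977, 1911, 1299 and 1506 counts in mice with Cre. In CPM these were 139.6, 170.8, 176.5 and 156.1 in control, and 58.8, 96.6, 68.3 and 88.3 in NOX4-deficient muscle. Every NOX4-deficient library lay below every control library, and within the NOX4-deficient group replicates 1 and 3 were lower than replicates 2 and 4. Over all genes these libraries split the same way, on the second principal component (18.5 and 17.0 against -26.3 and -25.0, 19% of the variance). *Tbc1d1* fell from 161 ± 16.5 to 78.0 ± 17.5 CPM, 2.06-fold, with a log2 fold change of -1.04 (SE 0.15, 95% confidence interval -1.37 to -0.72, edgeR adjusted p = 0.0020). Its p-value ranked 84 among the 12725 rows. Leaving out 1 library at a time gave log2 values between -1.16 and -0.92 and the call held each time, as it did under each of 16 alternative settings (adjusted p at most 0.00905). In a fit that set odd-numbered against even-numbered replicates as a further factor it was -1.07 (edgeR adjusted p = 3.02e-04). That factor was chosen because these libraries had split that way in earlier results, so this value adds no separate support.

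*Tbc1d4* (chromosome 14), the paralog that receives the AKT signal of insulin in muscle and fat, was not called. It had 1032, 1233, 852 and 1441 counts in control and 795, 1276, 1527 and 1149 counts in NOX4-deficient libraries, or 61.5 ± 12.1 and 65.0 ± 13.3 CPM. The groups overlapped throughout, with the lowest value of all in control replicate 3 (45.6 CPM) and the highest in NOX4-deficient replicate 3 (80.3 CPM). The log2 fold change was 0.081 (SE 0.17, edgeR adjusted p = 0.823), and its 95% interval of -0.29 to 0.45 stays inside the fold threshold. The sign of this small value turned when control replicate 3 (-0.024) or NOX4-deficient replicate 3 (-0.025) was left out.

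The balance of the paralogs can be read within a library without any scaling. There were 2.26, 2.69, 3.87 and 2.08 *Tbc1d1* counts for each *Tbc1d4* count in control, and 1.23, 1.498, 0.851 and 1.31 in NOX4-deficient libraries. The highest NOX4-deficient ratio was below the lowest control ratio, and in NOX4-deficient replicate 3 *Tbc1d4* had more counts than *Tbc1d1*. On the log2 scale the ratio was 1.40 ± 0.40 in control and 0.26 ± 0.35 in NOX4-deficient muscle, a difference of -1.14, which was not tested on its own. The exon lengths of both genes are close, 7405 and 7676 bases, so that counts and levels per length give nearly the same ratio.

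**Figure D2:**
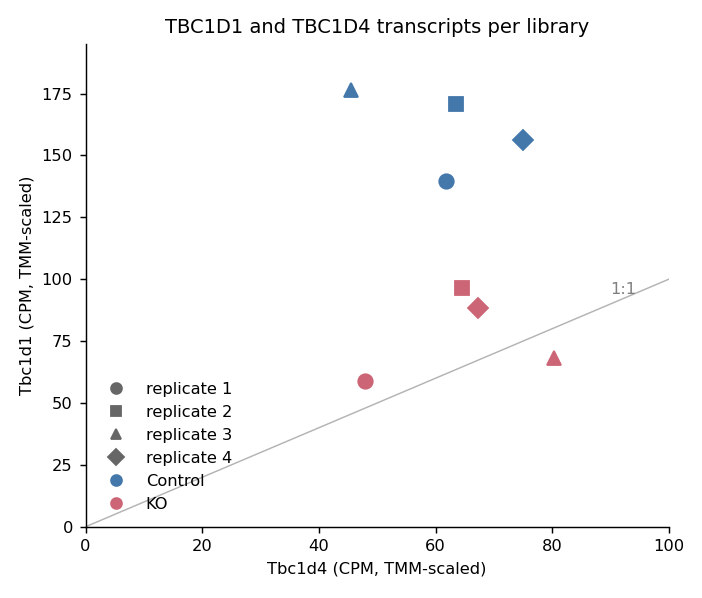
*Tbc1d1* (y axis) against *Tbc1d4* (x axis) in TMM-scaled CPM, 1 point per library, control in blue and NOX4-deficient (KO) in red, with a gray line at equal values. Control libraries sit high above the line with ratios of 2.08 to 3.87, NOX4-deficient libraries sit near it with ratios of 0.851 to 1.498, and the groups overlap in *Tbc1d4*.

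The RefSeq table holds 2 promoter windows for *Tbc1d1* and 1 for *Tbc1d4*, and they are shown because these paralogs are the pair in which 1 was called and the other was not. Each window runs from 250 bases before to 50 bases after a transcript start, 5′ to 3′ on the gene's strand, as RefSeq gives it for GRCm38.p6, with matches to the E-box CAGCTG, a motif of muscle regulatory factors, in capitals. The counts are per gene and were made on GRCm39, so they do not say which start was used.
Tbc1d1, chr5:64160010-64160309, plus strand: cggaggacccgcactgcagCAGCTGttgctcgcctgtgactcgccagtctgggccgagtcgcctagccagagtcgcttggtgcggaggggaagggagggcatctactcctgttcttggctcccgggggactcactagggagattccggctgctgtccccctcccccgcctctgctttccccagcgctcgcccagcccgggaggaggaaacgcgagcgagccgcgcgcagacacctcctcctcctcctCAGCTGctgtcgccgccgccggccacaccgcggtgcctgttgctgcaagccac
Tbc1d1, chr5:64230107-64230406, plus strand: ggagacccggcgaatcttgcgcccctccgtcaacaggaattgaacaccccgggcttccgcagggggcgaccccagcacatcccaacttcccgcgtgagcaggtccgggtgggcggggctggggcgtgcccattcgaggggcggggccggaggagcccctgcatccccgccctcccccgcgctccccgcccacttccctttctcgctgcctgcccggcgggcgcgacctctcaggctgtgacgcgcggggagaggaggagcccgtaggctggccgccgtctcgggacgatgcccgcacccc
Tbc1d4, chr14:101609142-101609441, minus strand: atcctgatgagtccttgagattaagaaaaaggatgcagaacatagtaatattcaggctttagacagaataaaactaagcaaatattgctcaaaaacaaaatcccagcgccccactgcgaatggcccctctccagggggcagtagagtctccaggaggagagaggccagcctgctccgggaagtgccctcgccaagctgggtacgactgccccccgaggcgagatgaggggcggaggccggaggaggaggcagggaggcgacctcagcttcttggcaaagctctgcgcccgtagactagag
The first *Tbc1d1* window held 2 matches to CAGCTG, and the other windows shown held 0. Of 32851 mouse windows of this length, 16.3% held CAGCTG, which reads the same on both strands. RefSeq windows were found for 7 of the 10 genes, 9 windows in all. Searched on both strands, CAGCTG also occurred in *Stx4a*, the MEF2-like motif, CTA and TAG with 4 bases between them, in *Slc2a12* (3.69% of all windows), and the antioxidant response element core TGACNNNGC in *Rab8a* (12.4% of all windows). The clock E-box CACGTG (7.15% of all windows) and the forkhead motif TGTTTAC (3.65% of all windows) had 0 matches in the 9 windows. These are letter matches and not measured binding.

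*Slc2a4* (chromosome 11) was the most abundant of the 10 genes in both genotypes. It had 6943, 8054, 7647 and 7686 counts in control and 7595, 8447, 7628 and 7636 counts in NOX4-deficient libraries. In CPM these were 416.1, 414.5, 409.2 and 399.6 in control, and 456.9, 427.2, 400.9 and 447.7 in NOX4-deficient muscle. NOX4-deficient replicates 1, 2 and 4 lay above every control and replicate 3 lay within the control range, and the spread was 24.8 CPM in the NOX4-deficient group against 7.43 CPM in control. The means were 410 ± 7.43 and 433 ± 24.8 CPM, with a log2 fold change of 0.080 (SE 0.09, edgeR adjusted p = 0.647) and of 0.13 without NOX4-deficient replicate 3. The 95% interval of the ratio ran from 0.923 to 1.21, so that a change as large as that of *Tbc1d1* lies outside it.

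The other transporters were expressed at a far lower level. *Slc2a1* (chromosome 4) encodes GLUT1, the basal transporter of many cell types, and had 126, 168, 150 and 262 counts in control and 154, 146, 92 and 72 counts in NOX4-deficient libraries. NOX4-deficient replicates 2, 3 and 4 (7.38, 4.84 and 4.22 CPM) lay below every control, replicate 1 (9.26 CPM) lay within the control range, and control replicate 4 (13.6 CPM) was the highest of all. The means were 9.46 ± 2.81 and 6.43 ± 2.34 CPM, with a log2 fold change of -0.56 (SE 0.26, 95% interval -1.13 to 0.0068, edgeR adjusted p = 0.222). Its size passed the fold threshold and its p-value did not. Without control replicate 4 the log2 fold change was -0.33 (adjusted p = 0.524), and over all libraries left out in turn it ranged from -0.77 to -0.33. Within each library the log2 ratio of *Slc2a1* to *Slc2a4* counts was -5.48 ± 0.41 in control and -6.15 ± 0.50 in NOX4-deficient muscle, and the groups overlapped.

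*Slc2a3* (chromosome 6), which encodes the high-affinity transporter GLUT3, had 290, 464, 459 and 543 counts in control and 348, 466, 332 and 390 counts in NOX4-deficient libraries. Its means were 23.5 ± 4.51 and 21.2 ± 2.74 CPM, a log2 fold change of -0.15 (95% interval -0.48 to 0.18, edgeR adjusted p = 0.605) that ranged from -0.27 without control replicate 1 to -0.052 without control replicate 4, and was -0.056 without NOX4-deficient replicate 3. *Slc2a12* (chromosome 10), which encodes a further insulin-responsive transporter, had 177, 241, 219 and 169 counts in control and 136, 192, 172 and 195 in NOX4-deficient libraries. Its means were 10.9 ± 1.58 and 9.59 ± 1.38 CPM, a log2 fold change of -0.18 (95% interval -0.51 to 0.15, edgeR adjusted p = 0.519) that ranged from -0.27 without control replicate 4 to -0.10 without NOX4-deficient replicate 1. For both genes the NOX4-deficient libraries fell largely inside the control range, with 1 *Slc2a12* value (8.18 CPM in replicate 1) below it. In the GRCm38 annotation 407 exon bases of *Slc2a12* overlap *Tbpl1* and 105 of *Slc2a1* overlap an antisense transcript, and reads of such bases cannot be assigned by strand in unstranded libraries.

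Of the 10 further transporter genes listed, 7 had too few counts to be tested: *Slc2a2*, *Slc2a5*, *Slc2a6*, *Slc2a7*, *Slc2a9*, *Slc5a1* and *Slc5a2*. None of the 3 tested was called. *Slc2a8* had 9.22 ± 1.04 and 9.43 ± 1.65 CPM (log2 fold change 0.034), and *Slc2a10* and *Slc2a13* had mean levels under 1 CPM in both genotypes. Per kilobase of exon, *Slc2a4* made up 92.1 to 94.4% of the summed level of the 4 transporters *Slc2a4*, *Slc2a1*, *Slc2a3* and *Slc2a12* in control libraries and 94.1 to 95.1% in NOX4-deficient libraries. Its level per kilobase was 29.5 to 49.9 times that of *Slc2a3* in control and 37.8 to 47.9 times in NOX4-deficient muscle. On this measure the summed transcript level of these 4 genes was mostly *Slc2a4* in each of the 8 libraries. *Slc2a8* and the other listed transporters were not part of the sum.

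The 5 genes whose levels followed *Slc2a4* most closely across the 8 libraries, by Pearson's r of log2 CPM, were *B230206L02Rik* (0.96), *Ptdss1* (0.95), *Saal1* (0.95), *Slc38a10* (0.94) and *Amn1* (0.93). None of them was called between the genotypes. The points share library depth and genotype, and the ranking over so many genes is a description.

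*Rab8a* (chromosome 8) and *Rab13* (chromosome 3) encode RAB proteins that act downstream of the GTPase-activating proteins. *Rab8a* had 152, 225, 230 and 212 counts in control and 225, 199, 207 and 173 in NOX4-deficient libraries, means of 11.0 ± 1.37 and 11.2 ± 1.63 CPM. *Rab13* had 174, 150, 134 and 171 counts in control and 168, 160, 169 and 126 in NOX4-deficient libraries, means of 8.55 ± 1.44 and 8.62 ± 1.17 CPM. The libraries of the genotypes were interleaved for both. The log2 fold changes were 0.017 (95% interval -0.30 to 0.33, edgeR adjusted p = 0.964) for *Rab8a* and 0.012 (95% interval -0.33 to 0.36, edgeR adjusted p = 0.977) for *Rab13*, and the sign of either turned with some libraries left out.

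*Vamp2* (chromosome 11) encodes the SNARE of the GLUT4 vesicle, and *Stx4a* (chromosome 7) encodes syntaxin 4, its partner on the plasma membrane. *Vamp2* had 67.8, 57.9, 63.7 and 61.8 CPM in control libraries and 58.1, 52.6, 61.0 and 52.1 CPM in NOX4-deficient ones, with 2 NOX4-deficient libraries below every control. *Stx4a* had 48.1, 42.8, 47.4 and 44.3 CPM in control libraries and 59.7, 47.2, 54.1 and 46.9 CPM in NOX4-deficient ones, with 2 NOX4-deficient libraries above every control. Neither was called. The log2 fold change of *Vamp2* was -0.17 (SE 0.10, 95% interval -0.38 to 0.044, edgeR adjusted p = 0.333), and that of *Stx4a* was 0.19 (SE 0.11, 95% interval -0.045 to 0.42, edgeR adjusted p = 0.324). Both intervals stay inside the fold threshold.

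**Figure D3:**
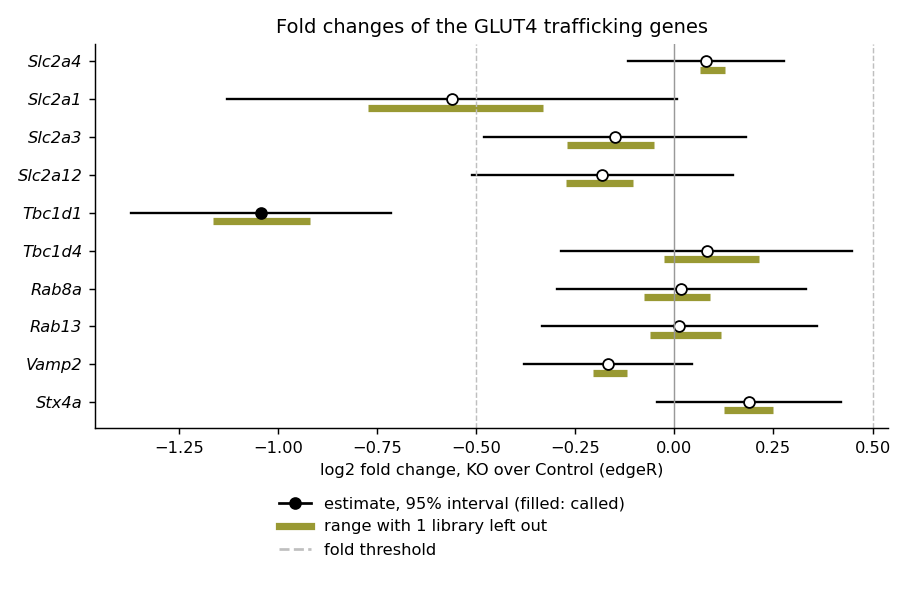
Log2 fold changes, NOX4-deficient over control, of the 10 genes (x axis) with 95% intervals from edgeR (black; filled point: called), the range with 1 library left out (olive) and the fold threshold of 0.5 in either direction (dashed). The interval of *Tbc1d1* (-1.37 to -0.72) lies wholly below the threshold, and that of *Slc2a1* (-1.13 to 0.0068) is the widest.

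Levels of different genes were compared per kilobase of annotated exon. In control muscle *Slc2a4* stood first at 118 ± 2.14 CPM per kb, followed by *Tbc1d1* (21.7 ± 2.23), *Stx4a* (19.3 ± 1.06), *Vamp2* (16.5 ± 1.08) and *Tbc1d4* (8.01 ± 1.57). *Rab13*, *Slc2a3*, *Slc2a1*, *Slc2a12* and *Rab8a* followed between 3.72 and 2.35 CPM per kb, and each neighbor among these 5 overlapped the next. *Tbc1d1* and *Stx4a* overlapped too, and with the longest transcript as the length *Stx4a* and *Vamp2* came before *Tbc1d1*. In NOX4-deficient muscle *Slc2a4* was again first at 125 ± 7.14 CPM per kb. *Tbc1d1*, at 10.5 ± 2.36 CPM per kb, came after *Stx4a* (21.99 ± 2.61) and *Vamp2* (14.7 ± 1.13), and its libraries overlapped those of *Tbc1d4* (8.47 ± 1.74).

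**Figure D4:**
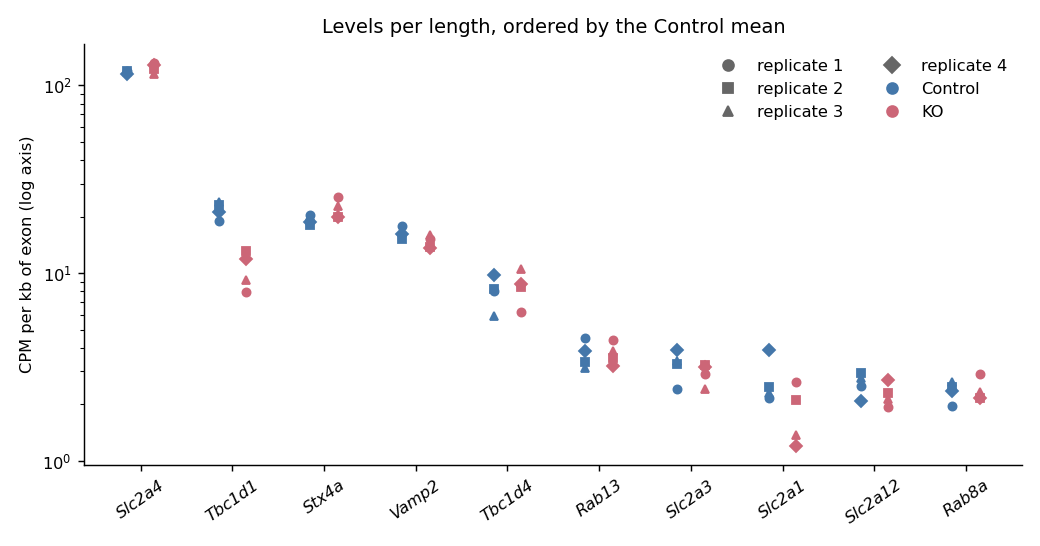
Level of each gene in CPM per kb of exon (y axis, log scale), ordered by the control mean, with control libraries in blue and NOX4-deficient (KO) libraries in red and the marker shape giving the replicate. *Slc2a4* stands far above the rest in every library, and *Tbc1d1* moves from 21.7 to 10.5 CPM per kb, next to *Tbc1d4*.

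The genes around GLUT4 traffic were taken from 9 lists, which left out the 10 genes above and had 167 members tested. Of these, 9 were called lower and 7 higher, 9.58% in all against 6.16% of all rows tested, and their median log2 fold change was -0.027 beside 0.014 over all rows. The calls were spread over 6 of the 9 lists. The lists were chosen with earlier results of these data known, so these shares are descriptions.

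The insulin signal that ends at AKT2 had 16 genes tested, of which 2 were called lower and 0 higher. *Irs1*, the docking protein of the insulin receptor, had 25.3, 49.6, 43.2 and 58.9 CPM in control libraries and 12.0, 27.3, 12.1 and 16.0 CPM in NOX4-deficient ones, and the highest NOX4-deficient library lay above the lowest control. It fell with a log2 fold change of -1.39 (SE 0.31, edgeR adjusted p = 0.0266), and the call was lost in 7 of 16 alternatives: without a filter on low counts (adjusted p = 0.113) and without control replicate 2, 3 or 4 or NOX4-deficient replicate 1, 3 or 4 (adjusted p from 0.0551 to 0.0801). *Pdpk1*, the kinase that activates AKT, fell from 62.1 ± 6.85 to 42.1 ± 5.93 CPM without overlap (log2 fold change -0.56, edgeR adjusted p = 0.0184), a call lost without control replicate 4 or NOX4-deficient replicate 1 or 3 (log2 fold change from -0.53 to -0.47). *Irs2* (51.4 ± 7.70 and 28.3 ± 11.0 CPM, log2 fold change -0.86) did not overlap between groups and missed the threshold (edgeR adjusted p = 0.0757), as did the insulin receptor gene *Insr* (log2 fold change -0.43, adjusted p = 0.152). *Akt2* had 350 ± 17.1 and 305 ± 15.5 CPM (log2 fold change -0.20, edgeR adjusted p = 0.208). In this list 14 of 16 log2 fold changes were negative, with a median of -0.29.

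The contraction signal had 17 genes tested, 1 called higher and 0 lower, and its median log2 fold change was 0.062. *Prkag3*, the AMPK gamma subunit found mainly in fast fibers, had 107, 122, 143 and 119 CPM in control libraries and 328, 360, 280 and 269 CPM in NOX4-deficient ones, and its call held in all 16 alternatives (log2 fold change at least 1.25). *Camk2a* (427 ± 45.5 and 574 ± 34.8 CPM, log2 fold change 0.43, edgeR adjusted p = 0.0288) and *Camk2b* (217 ± 24.5 and 283 ± 18.5 CPM, log2 fold change 0.38, edgeR adjusted p = 0.0454) passed the p threshold and not the fold threshold. *Rac1*, which carries a contraction and insulin signal to actin, had 234 ± 22.4 and 198 ± 7.21 CPM (log2 fold change -0.25, edgeR adjusted p = 0.148). *Prkag3* moved opposite to *Tbc1d1*, a substrate of AMPK, in these libraries, and no relation between them was tested.

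Among 28 tested genes of the RAB and RAL switch other than the 4 above, 2 were called lower and 0 higher (median log2 fold change -0.0021). *Rab11b*, a RAB of recycling endosomes, fell from 119 ± 7.23 to 81.6 ± 14.3 CPM (log2 fold change -0.54, edgeR adjusted p = 0.0211), and *Tbc1d15*, another RAB GTPase-activating protein gene, fell from 52.9 ± 7.56 to 37.0 ± 3.65 CPM (log2 fold change -0.51, edgeR adjusted p = 0.0235). Each call was lost in 5 of 16 alternatives, that of *Rab11b* without control replicate 1 or 3 or NOX4-deficient replicate 1, 2 or 4 (log2 fold change from -0.52 to -0.45), and that of *Tbc1d15* without control replicate 3 or 4 or NOX4-deficient replicate 1 or 3 (-0.52 to -0.41) or with at least 10 counts asked of every sample (-0.49). *Rab10*, the RAB most closely tied to GLUT4 in fat cells, had 573 ± 55.1 and 495 ± 56.0 CPM (log2 fold change -0.21, edgeR adjusted p = 0.295), and *Rab14* had 136 ± 3.19 and 113 ± 5.76 CPM (log2 fold change -0.27, adjusted p = 0.0843).

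Of 20 further SNARE fusion genes tested, 1 was called lower and 1 higher (median log2 fold change 0.018). *Snap29*, a broadly acting SNARE, fell from 45.9 ± 7.18 to 30.6 ± 3.60 CPM (log2 fold change -0.59, edgeR adjusted p = 0.0186), a call lost without control replicate 3 or 4 or NOX4-deficient replicate 3 or 4 (log2 fold change from -0.56 to -0.49). *Stxbp4*, which encodes a syntaxin 4 binding protein, had 14.7, 17.9, 16.3 and 11.5 CPM in control libraries and 17.9, 32.9, 25.9 and 30.0 CPM in NOX4-deficient ones and rose by a log2 fold change of 0.82 (SE 0.19, edgeR adjusted p = 0.0210), a call lost without control replicate 4 (adjusted p = 0.0590). *Snap23*, the third SNARE of the GLUT4 fusion complex, had 43.3 ± 4.56 and 40.2 ± 6.01 CPM (log2 fold change -0.11, edgeR adjusted p = 0.664). *Stxbp3*, whose product MUNC18C also binds syntaxin 4, had 40.7 ± 2.03 and 50.7 ± 3.04 CPM (log2 fold change 0.32, edgeR adjusted p = 0.0598) and was not called. *Napa* went the other way (148 ± 8.35 and 116 ± 6.31 CPM, log2 fold change -0.35, edgeR adjusted p = 0.0354). It passed the p threshold and not the fold threshold.

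Of 31 genes of vesicle cargo and sorting, 3 were called higher and 0 lower, while the median log2 fold change was -0.10. Of the 31 log2 fold changes, 20 were negative, so that the called genes went against most of their list. *Tfrc*, the transferrin receptor of recycling endosomes, had 26.2, 41.2, 34.4 and 29.9 CPM in control libraries and 95.8, 117, 113 and 88.0 CPM in NOX4-deficient ones (log2 fold change 1.65). *Txnip*, an arrestin-like protein that promotes endocytosis of glucose transporters, had 300, 410, 364 and 300 CPM in control libraries and 609, 618, 665 and 675 CPM in NOX4-deficient ones and rose by a log2 fold change of 0.90 (SE 0.12, edgeR adjusted p = 0.0011). Its homolog *Arrdc4* rose from 9.22 ± 1.07 to 13.4 ± 1.98 CPM (log2 fold change 0.54, edgeR adjusted p = 0.0395), and this call was lost in 8 of 16 alternatives, among them each library left out except control replicate 4 and NOX4-deficient replicate 4 (adjusted p up to 0.107), whereas *Tfrc* and *Txnip* were called in all 16. The cargo genes *Sort1* (165 ± 28.5 and 119 ± 25.6 CPM, log2 fold change -0.47, edgeR adjusted p = 0.0964) and *Lnpep* (89.0 ± 16.5 and 66.0 ± 14.4 CPM, log2 fold change -0.43, edgeR adjusted p = 0.162) were not called. *Ap1m1* was lower (23.9 ± 2.10 and 17.5 ± 1.03 CPM, log2 fold change -0.45, edgeR adjusted p = 0.0266) and passed the p threshold and not the fold threshold. The tether gene *Aspscr1* had 18.6 ± 2.60 and 19.3 ± 2.98 CPM (log2 fold change 0.050).

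Neither the 24 tethers and motors nor the 3 hexokinases tested had a called gene. *Hk2*, the main hexokinase of muscle, had 331 ± 40.5 CPM in control libraries and 350 ± 70.6 CPM in NOX4-deficient ones (log2 fold change 0.082, edgeR adjusted p = 0.785). The tethers and motors had a median log2 fold change of 0.023, and the smallest adjusted p among them was 0.230 (*Klc2*).

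Among 25 genes listed as regulators of *Slc2a4* transcription, 4 were called lower and 2 higher, or 24% against 6.16% of all rows, with a median log2 fold change of -0.11. As the list was chosen with earlier results known, this share is a description only. *Slc2a4* itself was not called. Of the 3 class II histone deacetylase genes listed, 1 rose, 1 fell and 1 was not called. *Hdac9* rose from 2.53 ± 0.50 to 10.2 ± 1.52 CPM (log2 fold change 2.00, SE 0.19, edgeR adjusted p = 1.08e-04), and *Hdac4* fell from 81.2 ± 9.94 to 40.3 ± 8.29 CPM (log2 fold change -1.01, SE 0.15, edgeR adjusted p = 0.0020), while *Hdac5* had 53.2 ± 1.40 and 50.9 ± 6.23 CPM (log2 fold change -0.064, edgeR adjusted p = 0.772). *Srebf1* rose (log2 fold change 0.97, edgeR adjusted p = 0.0059), and *Ppard* (-0.58, adjusted p = 0.0153) and *Klf15* (-0.72, adjusted p = 0.0195) fell. The clock gene *Arntl* had 32.1, 28.7, 27.1 and 73.5 CPM in control libraries and 15.6, 11.4, 5.36 and 9.91 CPM in NOX4-deficient ones (log2 fold change -1.94, edgeR adjusted p = 0.0243). The call of *Klf15* was lost without control replicate 3 or 4 (adjusted p = 0.0587 and 0.0578), and that of *Arntl* without NOX4-deficient replicate 2 or 4 (adjusted p = 0.0823 and 0.0702) or without a filter on low counts (0.0903). The other 4 calls held in all 16 alternatives. *Klf15* is also in the fasting-responsive list and *Arntl* in the clock list below. The MEF2 genes, whose products bind the *Slc2a4* promoter, were not called: *Mef2a* had a log2 fold change of -0.11, *Mef2c* of 0.38 (edgeR adjusted p = 0.170) and *Mef2d* of -0.29 (edgeR adjusted p = 0.105). *Ppargc1a* varied widely within control, with 127, 161, 54.2 and 55.9 CPM, and had 27.7, 33.0, 29.5 and 61.4 CPM in NOX4-deficient libraries (log2 fold change -1.39, edgeR adjusted p = 0.0855).

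**Figure D5:**
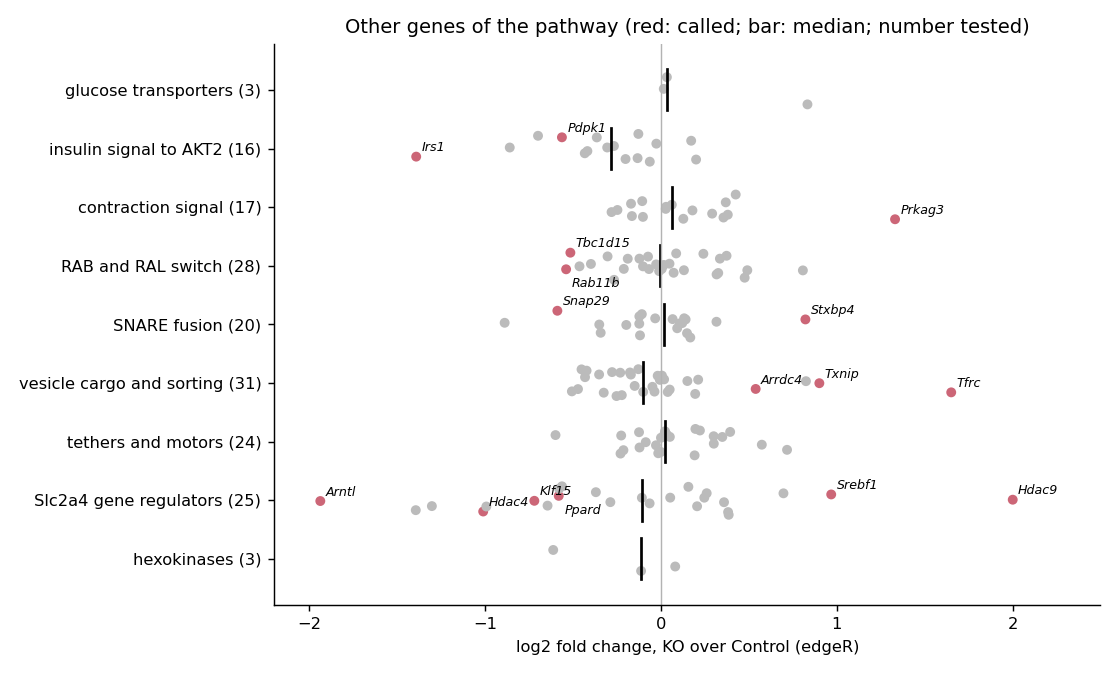
Log2 fold change, NOX4-deficient over control (x axis), of each tested gene in the 9 lists around GLUT4 traffic (rows, with the number tested); red points were called and are named, gray points were not, and black bars are list medians. The 16 called genes lie on both sides of 0, and the medians run from -0.29 for the insulin signal to 0.062 for the contraction signal.

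Other features of the libraries also differed between the genotypes. Fasting-responsive genes, such as *Pdk4* and *Fbxo32*, summed to 4602 to 6785 CPM in control libraries and 1304 to 2346 CPM in NOX4-deficient ones, and 9 of 13 tested were called lower. Of 18 clock genes 4 were called lower and 5 higher. Blood cell markers summed to 47.6 to 52.7 CPM in control libraries and 72.4 to 159 CPM in NOX4-deficient ones, and 2 of 3 tested were called higher. Adipocyte markers, whose cells also use GLUT4 and TBC1D4, summed to 488 to 666 CPM in control libraries and 327 to 403 CPM in NOX4-deficient ones, and without *Pnpla2*, which muscle fibers also express, to 183 to 320 and 175 to 230 CPM. Of the 9 adipocyte log2 fold changes 5 were positive, with a median of 0.15, and 1 gene was called lower. The lower sum therefore does not describe most genes of that list. Slow-fiber markers summed to 363 to 756 CPM in control libraries and 488 to 1302 CPM in NOX4-deficient ones, highest in replicate 4, with 8 of 9 log2 fold changes positive, a median of 0.66 and 1 gene, *Casq2*, called higher. Fast-fiber markers had no called gene among 10 and a median of 0.15. Nerve and Schwann cell markers summed to 83.6 to 116 CPM and 86.2 to 210 CPM, with 8 of 9 positive, a median of 0.49 and none called. Immune cell markers summed to 34 to 101.5 CPM and 22.2 to 66.9 CPM, with 9 of 10 negative, a median of -0.45 and none called. Fibroblast and tendon markers had 7 of 10 positive, a median of 0.33 and none called. Endothelial markers had a median of 0.12, with 1 of 10 called higher. The defining fat cell genes *Adipoq* (5.09 ± 4.01 and 9.18 ± 5.59 CPM) and *Plin1* (2.69 ± 2.25 and 6.92 ± 5.09 CPM) were low in both genotypes. Their means were higher in NOX4-deficient muscle, with a wide spread, opposite to the sum of all adipocyte markers. The part of these features in the *Tbc1d1* and pathway results was not tested.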

How the data were processed

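Gastrocnemius muscle of 4 control and 4 NOX4-deficient mice was analyzed. The authors deposited raw counts per gene and mouse, without normalization. STAR and GRCm39 are named in the submitters' processing notes, and the counter's settings are not given in the sources used here. The 8 columns were matched by name, with 0 left unmatched. Of 32390 rows, 11715 had no counts and 412 repeated a name, for which the row with most counts was taken. The genotypes were compared by edgeR 4.0.16 under R 4.3.3 (TMM, filterByExpr, robust glmQLFit, glmQLFTest) with genotype as the only term and Benjamini-Hochberg adjustment over 12725 rows. Variation between mice was modest (common biological coefficient 0.174). The fold and p thresholds are those of the study. The fit was tested on simulated data. DESeq2 1.42.0 and other settings were alternatives. Exon lengths came from GENCODE gene models of GRCm38 and matched all 10 symbols, and promoter windows came from RefSeq (GRCm38.p6). Coordinates are given for these windows only, since the counts use GRCm39.

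The genes, lists and alternatives were chosen with earlier results of these data known. Named genes are the 10 GLUT4 trafficking genes, the called genes of each list, the 5 genes most like *Slc2a4*, and *Nox4*. Of the 3 uncalled genes with the smallest p-values in a list, some were named and others were not. *Akt2*, *Rac1*, *Rab10*, *Rab14*, *Snap23*, *Sort1*, *Lnpep*, *Aspscr1*, the MEF2 genes, *Ppargc1a*, *Hdac5*, *Pdk4*, *Fbxo32*, *Casq2*, *Adipoq*, *Plin1* and *Pnpla2* fall outside this rule and were named for their role after their values were seen.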

Additional observations from a re-analysis of the deposited data

Results flagged for a closer look

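Of 76 groups of 4 libraries examined for a single value far from the rest, 3 stood out, and chance alone flags about 1 group in 20. The gap to the nearest library, as a share of the group's range, was 0.918 for *Nox4* in NOX4-deficient muscle, where replicate 1 had 1.75 CPM and the next 2.17 CPM. It was 0.892 for *Arntl* in control muscle, where replicate 4 had 73.5 CPM and the next 32.1 CPM. It was 0.866 for the summed fast-fiber markers in control muscle, where replicate 3 had 157500 CPM and the next 134000 CPM. None of the 10 GLUT4 trafficking genes had such a value in either genotype.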

How the results depend on the processing

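*Tbc1d1* was called in all 16 alternatives and the other 9 trafficking genes in none, so that 1 of the 10 was called under each setting. Of 160 gene-by-alternative values 7 turned sign, all with a library left out and all among values near 0. *Tbc1d4* ranged from -0.025 to 0.21, *Rab8a* from -0.077 to 0.090 and *Rab13* from -0.060 to 0.12. With each library left out, 499 to 712 genes were called over all rows, 295 to 425 lower and 204 to 317 higher, and in the 9 lists 10 to 16, of which 4 to 10 were lower and 6 to 7 higher. Control replicate 4 weighed most: without it 499 genes and 10 list genes were called. At an adjusted p under 0.01, 252 genes (156 lower, 96 higher) and 6 list genes (1 lower) were called. DESeq2 called 1018 genes, and 14 list genes lower. A further factor setting odd-numbered against even-numbered replicates, chosen because the NOX4-deficient libraries split that way in earlier results, gave 962 genes and 19 list genes.

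Replicate numbers are shared between genotypes without a stated link. The correlations of same-numbered deviations were 0.22, 0.15, 0.041 and 0.041, and 2 of 8 libraries correlated best with their own number, so the numbers were not taken to pair the mice. A fit with the replicate block called 933 genes, 1 of the 10 trafficking genes and 14 list genes lower, in place of 9, and *Arrdc4* lost its call under it (adjusted p = 0.0549). The cause of these shifts was not tested.

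With 4 mice per genotype, *Slc2a1* had an interval from -1.13 to 0.0068 and *Rab13*, at similar counts, one from -0.33 to 0.36, and differences inside the intervals given above could not be resolved. The samples are labelled as separate mice by number only, so p-values measure the spread between these libraries.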
